A study of Mus musculus with 16 samples.

Results

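The germline gene repressor complex, PRC1.6 with its H3K9 methyltransferase partners, was followed through 10 genes: Pcgf6, Mga, Max, L3mbtl2, E2f6, Rybp, Rnf2, Ehmt1, Ehmt2 and Setdb1. They were taken by symbol from the 24978 gene symbols of the deposited table, with earlier results of these data known. Where a symbol had several transcript lines the widest was taken. All 10 were present and all 10 were among the 14094 genes with a mean of at least 0.2 CPM (reads scaled to a library total of 1000000) that entered the tests.

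The cells were F121-9, a mouse embryonic stem cell line from a cross that carries a 129 and a cast copy of each chromosome, and clones edited from it, all grown without feeder cells in 2i medium with LIF. Nascent RNA was labelled with 2 mM bromouridine for 30 min, captured and sequenced (Bru-seq), so that a value reflects recent transcription rather than stored messenger RNA. The 16 libraries fell into 12 groups. The parental F121-9 cells gave 2 libraries. The deletion groups abc.del, ab.del and c.del each gave 2 as well, from different clones. The groups 680kinv, bc.del, 100kdel, 245kdel, 4k.b.c, ac.del, a.del and b.del had 1 library each, from 1 clone each. By its title, the study sought DNA elements that act in cis on replication. The labels name the edits by letters and lengths, and neither their positions nor the copy that was edited is given in the sources used here. Clones with the .del ending and letters a, b or c, together with F121-9, are called the lettered libraries below (12 of 16).

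PRC1.6 is a variant polycomb repressive complex 1. MGA, with its partner MAX, and E2F6 bring it to promoters that hold an E-box or an E2F site. PCGF6 is its PCGF subunit, RNF2 is the ubiquitin ligase for histone H2A, and RYBP and L3MBTL2 are further subunits. EHMT1 and EHMT2 (GLP and G9a) and SETDB1 methylate histone H3 at lysine 9, and together with PRC1.6 and DNA methylation they keep meiotic and germ cell genes silent in embryonic stem cells.

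Libraries held 8958147 to 32045609 reads assigned to a copy, and each member had between 68 reads (Ehmt2 in b.del) and 14727 reads (Rybp in c.del replicate 1) in a library. The 7 embryonic stem cell markers were all at 1 CPM or more in every library, with sums of 1525 to 2133 CPM, while 5 fibroblast markers summed to at most 1.65 CPM, 5 of primitive endoderm to at most 3.68 CPM and 5 of primed or later lineages to at most 13.6 CPM. Sample numbers form 2 separate runs of 8 libraries, called the first and the second deposit block here; the labels do not say what separates them. The first holds both F121-9 libraries, 680kinv, both abc.del libraries, bc.del and replicate 1 of ab.del and c.del. The X chromosome also differed between libraries. The 129 share of X reads was 49.7% to 55.6% in 5 libraries (both F121-9, 680kinv, 100kdel and 245kdel), 1.05% to 1.12% in 6, 99.8% in 3, and 11.3% and 13.2% in bc.del and c.del replicate 2. Summed X transcription was 0.901 to 1.15 times the F121-9 mean in the 5 libraries with both copies and 0.543 to 0.687 times in the other 11. No member lies on the X chromosome. In these bulk samples fewer cells with a transcript and less of it per cell cannot be told apart, and p-values measure only the spread between these libraries.

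The highest members per kilobase of gene were Rybp, at a median of 3.99 CPM per kb over the 16 libraries, Max (3.04), Pcgf6 (2.88) and Rnf2 (2.75). Ehmt1 (1.77), L3mbtl2 (1.69), Setdb1 (1.39) and Mga (0.986) followed, and Ehmt2 (0.479) and E2f6 (0.470) were lowest. Of these neighbours only Mga and Ehmt2 had ranges over the 16 libraries that did not overlap. Rnf2 was above Ehmt1 in 16 of 16 libraries and Setdb1 above Mga in 15, while Ehmt2 was above E2f6 in 8. Only reads over a base that differs between the copies were counted and the number of such bases per gene is not known here, so the order between genes is approximate. The SD of log2 CPM over the 16 libraries was 0.21 (Mga) to 0.51 (Ehmt2), with a median of 0.25 over the members. The median over 8028 genes with a mean of at least 5 CPM, which were not matched to the members by level, was 0.34; Ehmt2 and E2f6 (0.35) were above it and the other 8 members below.

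Among the subunits that recognise DNA, Mga (chr2:119897228-119969581 on mm10, plus strand) was at 90.3 and 86.8 CPM in the F121-9 libraries, the highest and the third highest values of the series. It was at 73.0 and 63.7 CPM in abc.del, 81.9 and 59.0 in ab.del, and 88.1 and 60.6 in c.del. Among single clones it ran from 61.1 CPM in a.del to 84.1 in 4k.b.c. The lower library of the ab.del and c.del pairs was in each case the one from the second block. Max, the dimer partner of MGA (chr12:76937269-76962248, minus strand), was at 69.9 and 75.9 CPM in F121-9. It was highest in 100kdel (112 CPM) and 245kdel (107 CPM) and lowest in 4k.b.c (55.4 CPM), and the other 13 libraries lay between 60.3 and 84.5 CPM. E2f6, which encodes a repressive E2F protein (chr12:16810965-16826752, plus strand), was at 6.30 and 7.28 CPM in F121-9, at 11.8 and 10.4 CPM in 100kdel and 245kdel, and at 5.24 to 10.3 CPM elsewhere. The 2 clones with the highest Max were thus also the 2 with the highest E2f6, which lies on the same chromosome; summed chromosome 12 transcription was 0.986 and 1.00 times the F121-9 mean in them. With 1 library each, these differences have no replicate check.

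Of the polycomb subunits, Pcgf6 (chr19:47033617-47050906, minus strand) was at 42.0 and 43.7 CPM in F121-9. It was at 45.9 and 50.1 CPM in abc.del, 47.5 and 51.9 in ab.del and 44.6 and 60.1 in c.del, so all 6 of these libraries were above both F121-9 libraries. The single clones ran from 36.9 CPM in bc.del to 58.9 in 100kdel. Rnf2 (chr1:151469398-151500991, minus strand) was at 106 and 90.0 CPM in F121-9, at 73.0 and 91.5 in abc.del, 84.9 and 71.3 in ab.del and 85.7 and 66.8 in c.del. Rybp, a subunit that binds ubiquitinated H2A (chr6:100228565-100287358, minus strand), was at 281 and 268 CPM in F121-9. It stayed between 242 and 309 CPM in the 8 libraries of the first block and between 177 and 227 CPM in the 8 of the second. L3mbtl2, a reader with MBT domains (chr15:81663889-81688315, plus strand), was at 37.3 and 39.5 CPM in F121-9 and ran from 33.1 to 57.7 CPM, with both ends of that range in the c.del pair. Chadl overlaps 2149 bp of L3mbtl2 on the other strand at a mean of 0.534 CPM; the libraries were strand specific, but how strand entered the counting is not given in the sources used here.

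Of the H3K9 methyltransferases, Ehmt1 (chr2:24790769-24919609, minus strand) was at 284 and 288 CPM in F121-9. It lay between 235 and 295 CPM in the first block and between 167 and 222 CPM in the second. Its partner Ehmt2 (chr17:34898492-34914050, plus strand) was at 7.56 and 9.26 CPM in F121-9 and had the widest range of the members, from 3.44 CPM in b.del to 12.6 CPM in abc.del replicate 2. Setdb1, which acts on retroelements as well as germline genes (chr3:95323525-95357202, minus strand), was at 45.8 and 37.8 CPM in F121-9. Its highest values were 66.2 CPM in ac.del and 65.0 CPM in c.del replicate 1, and the other 14 libraries lay between 37.8 and 54.2 CPM.

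**Figure D1:**
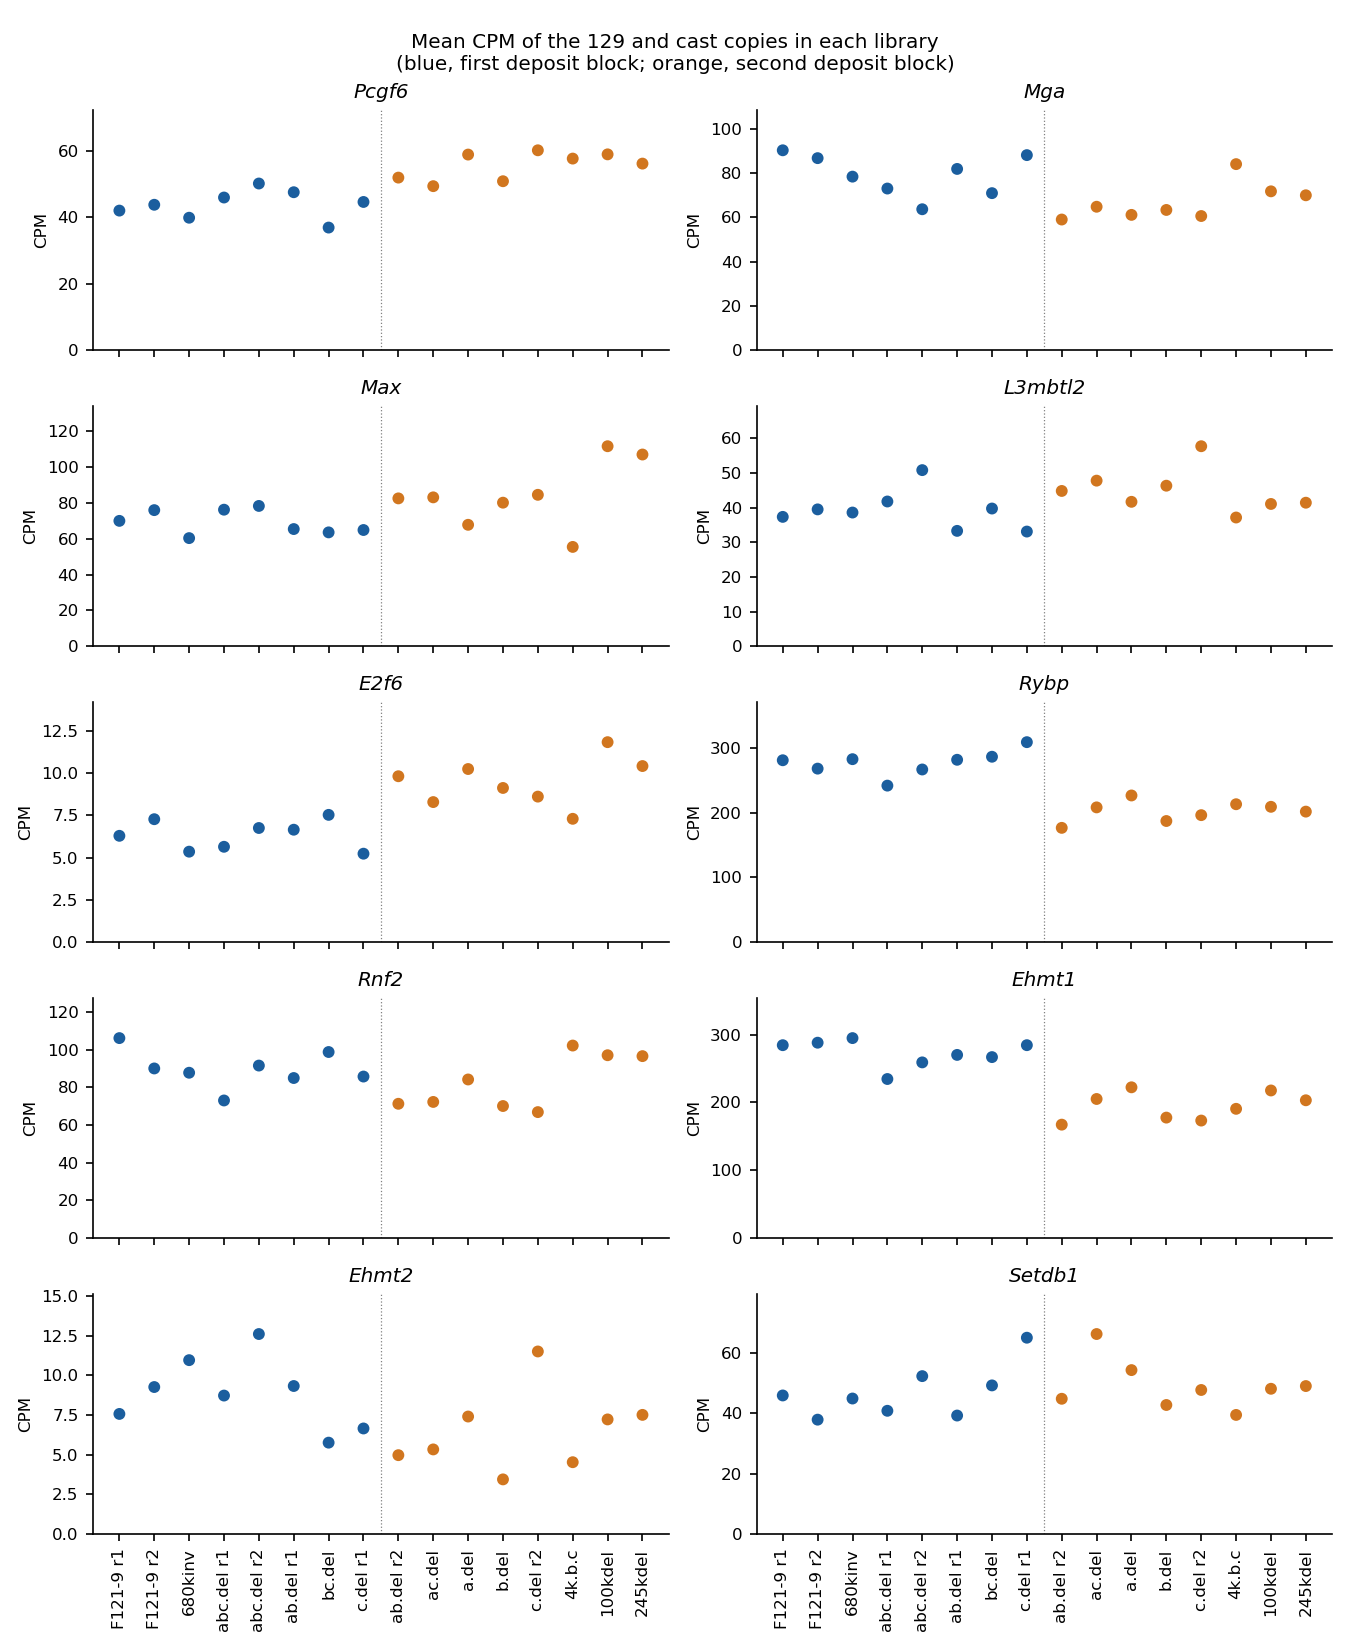
Level of each member (y axis, CPM, mean of the 129 and cast copies, each axis from 0) in the 16 libraries (x axis; r1 and r2 are replicates), with the first deposit block in blue and the second in orange. Rybp and Ehmt1 separate completely between the blocks, and Max is highest in 100kdel and 245kdel, at 112 and 107 CPM.

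Comparing the deletion groups with F121-9 asks whether loss of the lettered sites was accompanied by a change in transcription of the complex. No member passed in any of these comparisons. In abc.del, 0 of 10 members were called at a limma adjusted p of 0.05, where 0.22% of all genes were called (31 of 14094). In ab.del and c.del the count was also 0 of 10, against 0.0497% of all genes in each (7 of 14094). No member had an unadjusted p below 0.05 in any of the 3, where 1445, 1099 and 1331 of all genes did, and 0 members were called by edgeR's quasi-likelihood test on the recovered reads (0.128%, 0.078% and 0.0568% of all genes) or by DESeq2 (2.59%, 1.33% and 1.58% of genes with an adjusted p). With median centring, which sets each library's median to a common value, it was 0 members again (0.603%, 0.255% and 0.199% of all genes). All abc.del and F121-9 libraries were of the first deposit block. In these comparisons only replicate 2 of ab.del and of c.del were of the second. A block term here thus cannot be told apart from the difference between the clones of those pairs. With the block as a covariate, chosen after seeing the data, 0 members were called in the 3 groups, against 4.76%, 1.43% and 1.47% of all genes.

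The largest fitted decrease in abc.del was in Mga, at -0.38 on the log2 scale (95% interval -0.93 to 0.18, limma adjusted p 0.643), with both libraries below both F121-9 libraries. In ab.del it was in Ehmt1, at -0.43 (-1.06 to 0.21, limma adjusted p 0.725), and in c.del in Ehmt1 (-0.37) and Rnf2 (-0.37, -0.86 to 0.13, limma adjusted p 0.628). The largest fitted increases were Ehmt2 in abc.del (0.32), E2f6 in ab.del (0.25) and Setdb1 in c.del (0.42, -0.13 to 0.96, limma adjusted p 0.618). The 95% intervals differed in width between members. In abc.del the interval as a fold change was 0.761 to 1.47 for Max and 0.801 to 1.56 for Pcgf6, the narrowest, and 0.647 to 2.41 for Ehmt2, the widest. The outermost bounds over the 10 members were 0.507 and 2.41 in abc.del, 0.422 and 2.15 in ab.del and 0.499 and 2.02 in c.del. With replicate 2 as the lone c.del library the Setdb1 change was 0.19, and with replicate 1 alone it was 0.64.

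Libraries that did not overlap the F121-9 pair were about as frequent among the members as among all genes. In abc.del both libraries were below both F121-9 libraries for Mga, Rybp and Ehmt1, 3 of 10, against 24.9% of all genes, and above for Pcgf6, Max and L3mbtl2, 3 of 10, against 29% of all genes. In ab.del 3 members were below (Mga, Rnf2 and Ehmt1; 18.3% of all genes) and Pcgf6 alone was above (22.7% of all genes). In c.del Rnf2 was below (16.5% of all genes), and Pcgf6 and Setdb1 were above (22.5% of all genes). The 3 comparisons share their F121-9 libraries.

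The single-library clones were used in a fit over the 12 lettered libraries with a term for each of sites a, b and c. It called 0 of 10 members for site a (0.0142% of all genes, 2 of 14094), 0 for site b (0% of all genes) and 0 for site c (0% of all genes). The fitted changes of the members ran from -0.16 to 0.23 for site a, from -0.26 to -0.01 for site b and from -0.23 to 0.27 for site c on the log2 scale. No member had an unadjusted p below 0.05 for any site, where 1246, 717 and 459 of all genes did, and 0 members were called for each by edgeR (0.0142%, 0% and 0% of all genes) or DESeq2 (1.14%, 0.0639% and 0.0213%).

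**Figure D2:**
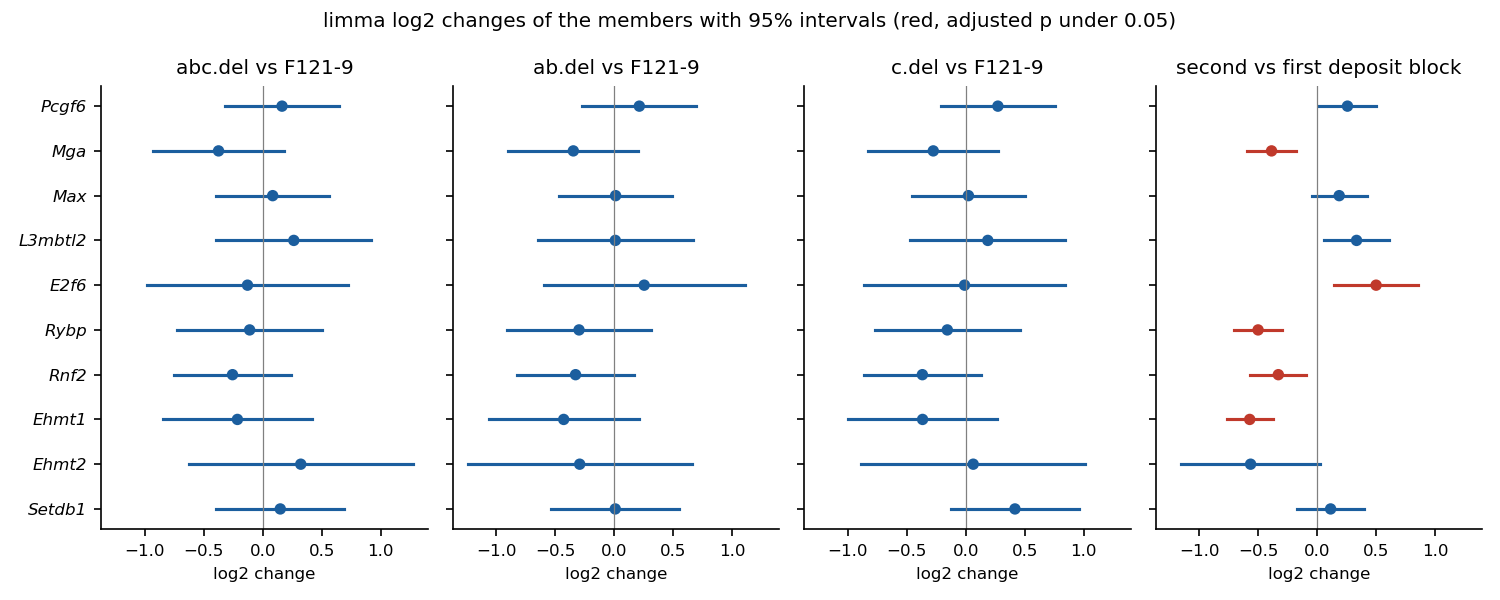
Fitted log2 change of each member (x axis; points, with 95% intervals as lines) in the 3 deletion groups against F121-9 and in the second against the first deposit block. Every interval of the 3 deletion comparisons spans 0, and 5 members are called (red) between the blocks.

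The deposit block, in contrast, went with clear differences. With a block term added to the site terms over the 12 lettered libraries (7 of the first block and 5 of the second), an analysis chosen after seeing the data, 5 of 10 members were called, against 24.6% of all genes (3461 of 14094). Of the called members, 4 were lower in the second block: Ehmt1 by -0.57 (SE 0.09, limma adjusted p 0.00121), Rybp by -0.50 (SE 0.09, limma adjusted p 0.00261), Mga by -0.39 (SE 0.10, limma adjusted p 0.0119) and Rnf2 by -0.33 (SE 0.11, limma adjusted p 0.0447). That is 4 of 10 members against 6.99% of all genes. E2f6 alone was higher, by 0.50 (SE 0.16, limma adjusted p 0.0422), against 17.6% of all genes. The median over all genes was 0.15, and 2476 genes were called higher and 985 lower; with median centring the median over all genes was -0.13 and the split 1080 to 2440, and with edgeR it was 1542 to 1631.

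In these 12 libraries Ehmt1 ran from 235 to 288 CPM in the first block (median 270) and from 167 to 222 in the second (median 178). Rybp ran from 242 to 309 CPM (median 281) and from 177 to 227 (median 196), and E2f6 from 5.24 to 7.54 CPM (median 6.66) and from 8.29 to 10.3 (median 9.13). In none of these 3 did the blocks overlap, 3 of 10 members against 12.2% of all genes. Those of Mga (63.7 to 90.3, then 59.0 to 64.8 CPM) and Rnf2 (73.0 to 106, then 66.8 to 84.2 CPM) did. The second-block libraries outside the lettered set did not share the lower Rnf2. It was at 97.0 CPM in 100kdel, 96.6 in 245kdel and 102 in 4k.b.c, above the median of all first-block libraries (88.9 CPM). Mga was at 71.8, 70.0 and 84.1 CPM in them, against a first-block median of 80.2 CPM. Ehmt1, Rybp, Mga and Rnf2 were also called by edgeR (22.5% of all genes) and with median centring (25% of all genes); E2f6 was not called under either (adjusted p 0.149 with edgeR and 0.347 with median centring), and Ehmt2 was called with median centring at -0.84 (limma adjusted p 0.0208). Leaving out 1 library at a time gave 3 to 5 called members, with Ehmt1, Rybp and Mga called each time. The others varied: Rnf2 and E2f6 dropped out of some of these fits, while Ehmt2 (lower) and Pcgf6 and L3mbtl2 (both higher) entered some.

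The block difference varied with gene span across all genes. Among genes with a mean of at least 1 CPM its median was 0.60 for those up to 10 kb, 0.34 from 10 to 20 kb, 0.09 from 20 to 50 kb, -0.07 from 50 to 100 kb, -0.13 from 100 to 200 kb and -0.04 over 200 kb. Ehmt1 (129 kb), Mga (72.4 kb) and Rybp (58.8 kb), the 3 members that span the most, were lower in the second block, and E2f6 (15.8 kb) was higher. Beside the medians of their span classes, Ehmt1 was at -0.57 against -0.13, and Rybp at -0.50 and Mga at -0.39 against -0.07. Rnf2 (31.6 kb) was at -0.33 against 0.09. No class median was below -0.13, so these 4 members, picked as called lower, were bound to lie below theirs. Ehmt2 (15.6 kb), not called (limma adjusted p 0.150), was at -0.57 against 0.34. The part of span in the members' differences was not tested, and block and any handling that differed between the 2 runs of samples cannot be told apart.

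**Figure D3:**
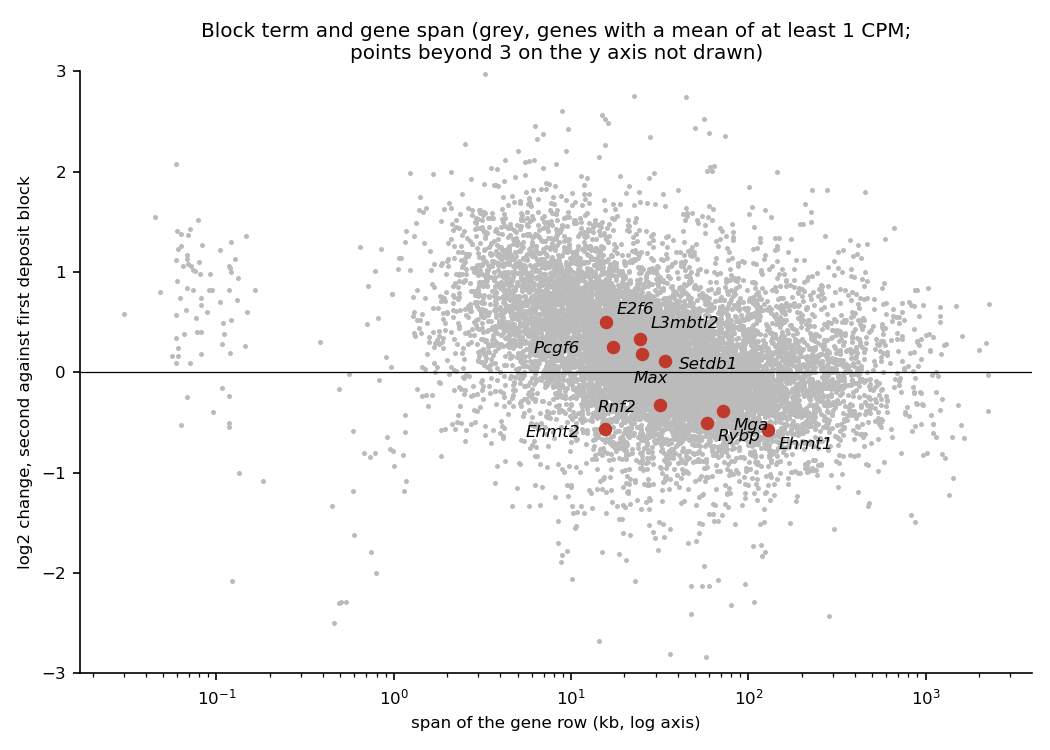
Log2 change between deposit blocks (y axis) against the span of the gene (x axis, kb, log scale) for genes with a mean of at least 1 CPM (grey) and the members (red). Short genes lie mostly above 0, with a median of 0.60 up to 10 kb, and the members with the widest spans, Ehmt1, Mga and Rybp, lie below 0.

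Transcription from the 129 and cast copies could be compared within each library, which leaves the level of the gene out. Over 16 libraries 7 of 10 members differed between copies at a limma adjusted p of 0.05, against 46% of all genes (6480 of 14094). Such a difference was thus common among genes in general, which were not matched to the members by level. Each copy was scaled to its own total in a library, so higher from a copy means higher relative to that copy's total. Higher from 129 were Rnf2, L3mbtl2, Pcgf6 and Ehmt1, 4 of 10 against 24.1% of all genes. Higher from cast were Ehmt2, Mga and Rybp, 3 of 10 against 21.8% of all genes. By reads alone the median 129 share was 50.4% for Mga and 51.0% for Rybp. Most of the 7 differences were small. L3mbtl2 gave a log2 ratio of 129 over cast of 0.32 (SE 0.04, limma adjusted p 5.44e-06) and a 129 share of reads of 51.4% to 63.0%. Ehmt2 gave -0.62 (SE 0.12, limma adjusted p 0.00054) and a share of 23.5% to 57.0%, with few reads. Pcgf6 gave 0.20, Ehmt1 0.12, Mga -0.13 and Rybp -0.08. For Pcgf6 the ratio was 0.37 in the first deposit block alone and 0.03 in the second alone. The autosomal 129 share of all reads was 51.0% to 53.4%, and no allowance was made for reads of the cast copy that align less well.

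Rnf2 had the largest imbalance of the members outside 4k.b.c and a.del. In those 14 libraries its 129 share was between 62.9% and 67.8%, for example 64.7% in F121-9 replicate 1 (95% Wilson interval 63.4% to 66.0%, 5255 reads), while all genes of chromosome 1 were at 52.7% to 53.7%. Without 4k.b.c and a.del, a setting chosen after seeing the data, its log2 ratio was 0.77 (SE 0.03, limma adjusted p 9.31e-12). In that setting 8 of 10 members were called, against 48.5% of all genes, and Max was added, at 0.26 (limma adjusted p 0.000174); over all 16 libraries Max was at -0.92 and not called (limma adjusted p 0.341). In the first block alone 6 members were called, against 35.1% of all genes, and in the second alone 3 (L3mbtl2, Ehmt1 and Ehmt2), against 34.7%.

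In 4k.b.c and a.del a copy of 2 chromosomes was nearly absent from the reads. Chromosome 1 was 99.7% and 99.8% 129, and chromosome 12 was 0.456% and 0.440% 129. Rnf2 on chromosome 1 followed, with 129 shares of 99.8% and 99.97% (2202 and 3437 reads). Its total of 102 and 84.2 CPM stayed within the range of the other libraries, while the 129 copy gave 204 and 168 CPM, 1.69 and 1.39 times its F121-9 mean. Max on chromosome 12 had a 129 share of 0% in 4k.b.c (0 of 1144 reads, Wilson upper bound 0.335%) and 0.277% in a.del, and its cast copy was at 1.75 and 2.14 times the F121-9 mean. E2f6, also on chromosome 12, had shares of 3.31% (Wilson interval 1.42% to 7.52%) and 0.783%, and its cast copy was at 2.53 and 3.64 times the F121-9 mean. With few reads E2f6 also strayed from its chromosome elsewhere, as in c.del replicate 1, where its 129 share was 36.2% (30.4% to 42.4%) and that of chromosome 12 was 51.5%. Summed chromosome 1 transcription was 1.02 and 1.01 times, and chromosome 12 0.931 and 0.970 times, the F121-9 mean. By copy, the 129 sum of chromosome 1 was 2.01 and 2.00 times, and the cast sum of chromosome 12 1.84 and 1.91 times, the F121-9 mean. The ratio of Rnf2 was thus below that of its chromosome in both clones. That of E2f6 was above in both, and that of Max was below in 4k.b.c and above in a.del. Read counts are not independent molecules, so these intervals cover counting error only.

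Setdb1 showed a different pattern in c.del replicate 1 and ac.del, its 2 highest libraries. Its 129 share was 32.7% (95% Wilson interval 31.1% to 34.4%) and 36.6% (35.2% to 38.0%), against 47.3% to 57.5% in the other 14 libraries. The cast copy of Setdb1 was at 2.22 and 2.14 times the F121-9 mean and the 129 copy at 0.928 and 1.06 times. All of chromosome 3 moved alike in them, with 129 shares of 33.8% and 36.3% and a cast sum 1.89 and 2.00 times that of F121-9. For the c.del pair, the fitted Setdb1 change was 0.05 on the 129 copy alone and 0.68 on the cast copy alone.

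**Figure D4:**
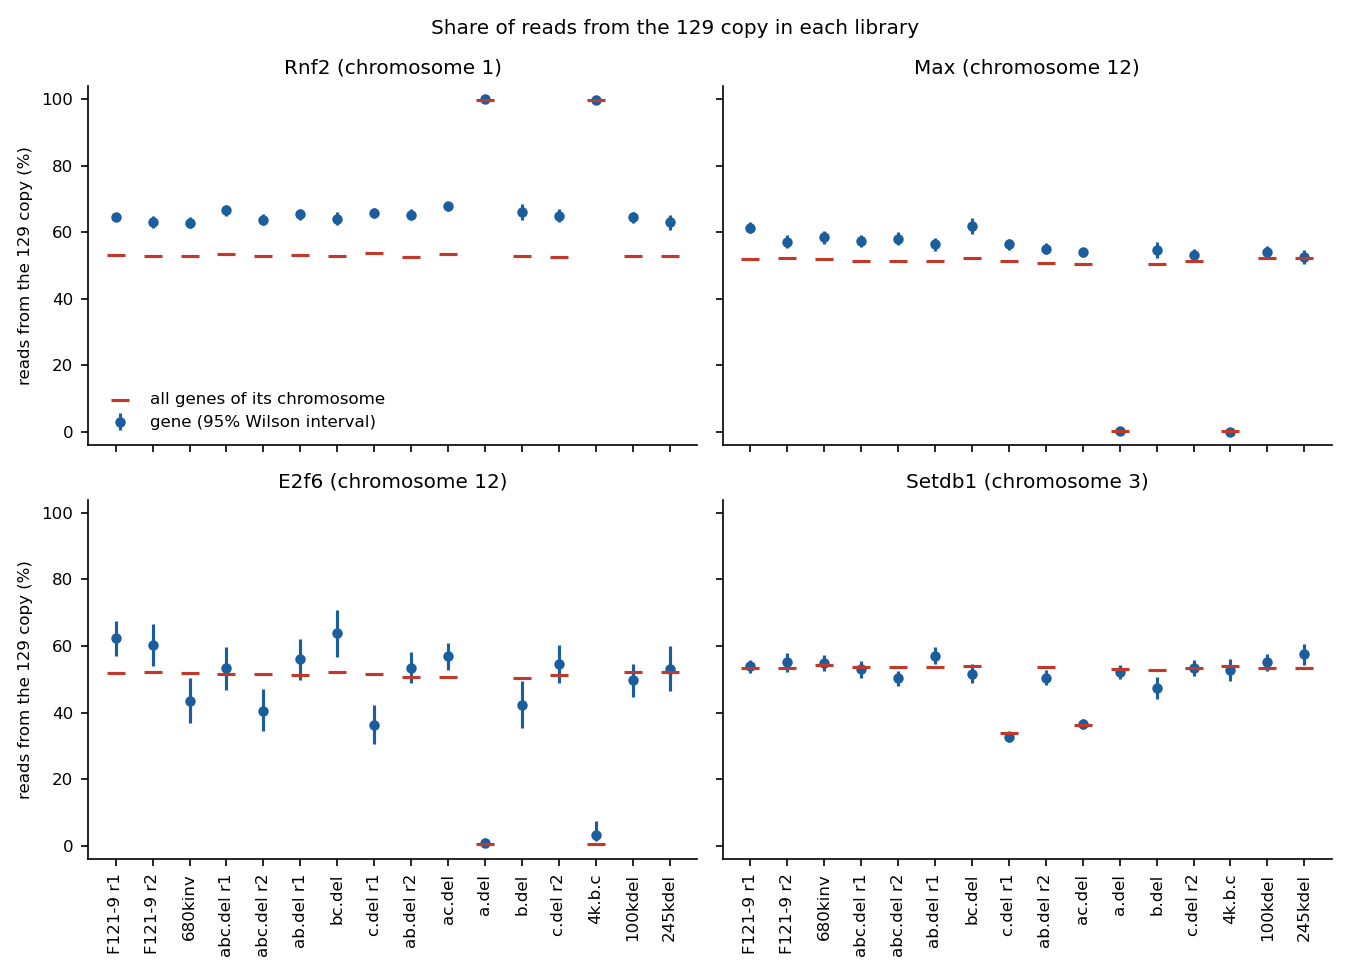
Share of reads from the 129 copy (y axis, percent) of Rnf2, Max, E2f6 and Setdb1 in each library (x axis; points, with 95% Wilson intervals), beside all genes of the same chromosome (red dashes). Rnf2 is at 62.9% to 67.8% in 14 libraries where its chromosome is at 52.7% to 53.7%, Rnf2 and Max depart with their chromosomes in 4k.b.c and a.del, and Setdb1 does so in c.del r1 and ac.del.

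The genes that PRC1.6 and its partners are known to repress were described by a list of 20 germline genes, chosen with earlier results of these data known. Since MGA and E2F6 recognise short DNA motifs, 4 of their promoters that hold both an E-box (CACGTG) and an E2F core (GCGGGA or its complement TCCCGC) are printed here, from 250 bases before to 50 bases after the start, 5′ to 3′ on the gene's strand, with the matches in capitals. They are from RefSeq on GRCm38.p6, at chr13:112652261-112652560 (minus strand) for Ddx4, an RNA helicase of germ cells, chr1:166238695-166238994 (minus) for Mael, which acts in piRNA silencing, chr3:40708621-40708920 (plus) for Slc25a31, a testis ADP/ATP carrier, and chr5:138280259-138280558 (plus) for Stag3, a meiotic cohesin subunit.
Ddx4: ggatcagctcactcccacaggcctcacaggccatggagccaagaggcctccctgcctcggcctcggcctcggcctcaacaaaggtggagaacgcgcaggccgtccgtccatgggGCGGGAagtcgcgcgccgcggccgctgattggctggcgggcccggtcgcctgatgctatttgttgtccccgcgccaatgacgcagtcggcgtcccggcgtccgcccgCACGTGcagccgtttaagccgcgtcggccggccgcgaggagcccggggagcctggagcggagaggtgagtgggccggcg
Mael: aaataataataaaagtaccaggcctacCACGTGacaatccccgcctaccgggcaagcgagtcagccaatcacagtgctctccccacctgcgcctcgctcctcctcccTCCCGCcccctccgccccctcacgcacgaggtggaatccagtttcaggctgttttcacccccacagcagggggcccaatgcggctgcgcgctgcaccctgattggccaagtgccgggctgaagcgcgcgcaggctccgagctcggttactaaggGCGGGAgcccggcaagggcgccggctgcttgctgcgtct
Slc25a31: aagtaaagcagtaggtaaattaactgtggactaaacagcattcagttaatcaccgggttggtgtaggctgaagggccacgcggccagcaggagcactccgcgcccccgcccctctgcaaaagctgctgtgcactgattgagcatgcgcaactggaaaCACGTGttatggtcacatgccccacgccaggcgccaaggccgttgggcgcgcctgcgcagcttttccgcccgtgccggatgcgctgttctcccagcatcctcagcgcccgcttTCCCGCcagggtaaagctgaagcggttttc
Stag3: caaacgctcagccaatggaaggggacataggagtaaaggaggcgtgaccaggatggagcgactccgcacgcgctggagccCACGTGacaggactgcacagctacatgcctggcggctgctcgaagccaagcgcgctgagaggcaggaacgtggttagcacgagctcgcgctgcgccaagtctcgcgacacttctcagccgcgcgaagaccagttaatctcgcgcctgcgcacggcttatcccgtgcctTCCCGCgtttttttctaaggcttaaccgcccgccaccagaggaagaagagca
Of 19 listed genes with a promoter in that table, 11 held the E-box, 8 the E2F core and 6 both (also Sycp3 and Hormad1), searched on both strands. Of all 27025 genes with a promoter, 8.09% held the E-box, 22.1% the E2F core and 2.32% both. Of 9 members with a promoter there, 2 held the E-box (Ehmt2 and Max), 4 the E2F core (E2f6, Ehmt1, Ehmt2 and Rnf2) and 1 both. A match describes the letters only.

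Transcription of the germline genes was low and differed widely between libraries. Their levels summed to 127 and 129 CPM in F121-9, 39.1 and 38.9 in abc.del, 43.4 and 64.9 in ab.del and 48.7 and 97.1 in c.del. Among single clones the sum was 246 CPM in 100kdel, 232 in 245kdel, 125 in 680kinv, 93.2 in bc.del, 82.1 in 4k.b.c, 57.4 in ac.del, 53.1 in b.del and 45.7 in a.del. The members themselves summed to 713 to 987 CPM. The 4 listed genes with the highest means were Stk31, Stag3, Smc1b and Tex11. Smc1b, a meiotic cohesin subunit, was at 12.3 and 26.6 CPM in F121-9 and at 3.12 and 1.53 in abc.del, 3.28 and 2.97 in ab.del and 2.90 and 5.75 in c.del. Stk31, a germ cell kinase, was at 20.8 and 23.5 CPM in F121-9, 7.55 and 6.80 in abc.del, 9.66 and 11.4 in ab.del, and 9.06 and 28.7 in c.del. Stag3 was at 23.0 and 18.2 CPM in F121-9 and 8.80 and 8.51 in abc.del, and Tex11, an X-linked meiosis gene, at 26.1 and 17.1 CPM in F121-9 and 5.97 and 6.64 in abc.del.

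Of 19 listed genes that entered the test (Tex101 did not), 14 were below both F121-9 libraries in both abc.del libraries, against 24.9% of all genes. The count was 16 of 19 in ab.del, against 18.3%, and 9 of 19 in c.del, against 16.5%. None passed an adjusted p of 0.05 with limma or edgeR; 10, 8 and 6 had an unadjusted limma p below 0.05 (10, 10 and 6 with edgeR). The median log2 change was -1.23 in abc.del, -1.29 in ab.del and -0.74 in c.del, against 0.04, 0.08 and 0.09 over all genes. Median centring gave 2 calls in abc.del (Hormad1 and Smc1b), 1 in ab.del (Smc1b) and 0 in c.del, all lower, against 0.553%, 0.248% and 0.192% of all genes called lower. With the deposit block as a covariate limma called 7, 4 and 2 of the 19, all lower, against 3.39%, 1.09% and 1.06% of all genes called lower in that fit. Its block term rests on the clones of the ab.del and c.del pairs alone, so their shared difference is left out of the spread. DESeq2 called 7, 3 and 2, all lower, against 2.28%, 1.12% and 1.18%. Dazl, an RNA-binding protein of germ cells, was called in all 3 comparisons with the block covariate, at -3.22 (SE 0.44, limma adjusted p 0.00811) in abc.del, -3.81 (SE 0.50, limma adjusted p 0.0109) in ab.del and -3.39 (SE 0.50, limma adjusted p 0.0148) in c.del. These values depend on that covariate: without it limma gave -2.38 (adjusted p 0.637) in ab.del and -1.96 (adjusted p 0.597) in c.del, and edgeR gave -1.75 (adjusted p 0.651) and -1.87 (adjusted p 0.562). Dazl was at 15.0 and 7.67 CPM in F121-9, 1.11 and 1.02 in abc.del, 0.516 and 6.92 in ab.del, and 1.20 and 5.86 in c.del, so that replicate 2 of ab.del and c.del lay close to the lower F121-9 library. Hormad1, a meiotic chromosome axis protein, was called with that covariate in abc.del (-1.98, SE 0.28, limma adjusted p 0.00845) and ab.del (-1.71, SE 0.31, limma adjusted p 0.0338).

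Between the deposit blocks 2 of the 19 were called, Tdrkh, a piRNA pathway gene, higher by 1.17 and Tex11 lower by -0.97, a smaller share than the 24.6% of all genes. Between the copies 10 of 19 were called, 6 higher from 129 and 4 higher from cast, against 46% of all genes (24.1% and 21.8%), of which Stag3 had the largest log2 ratio, 3.38, and Stk31 the lowest, -1.45.

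The X chromosome moved with these genes. In the 5 libraries with X reads of both copies the germline genes summed to 125 to 246 CPM, and in the other 11 to 38.9 to 97.1 CPM. The highest of those 11 were c.del replicate 2 (97.1 CPM) and bc.del (93.2 CPM), the 2 whose 129 share of X reads was intermediate. Next was 4k.b.c (82.1 CPM), with a share of 1.06% and the lowest summed X transcription, 0.543 times the F121-9 mean. In c.del replicate 1 summed X transcription was 0.674 times that mean and the germline sum 48.7 CPM. A graded relation was not tested. Without the X-linked Taf7l and Tex11 the sums were 101 to 218 and 32.2 to 91.9 CPM, again without overlap. Of 19 genes, 4 (Smc1b, Hormad1, Asz1 and Taf7l) were higher in all 5 libraries than in all 11, against 3.19% of all genes. Of the 10 members, 0 were higher in all 5 and 0 lower in all 5, against 3.19% and 0.475% of all genes; Mga, for example, ran from 70.0 to 90.3 CPM in the 5 and from 59.0 to 88.1 CPM in the 11. Both F121-9 libraries had X reads of both copies and all 6 libraries of abc.del, ab.del and c.del lacked most or all of those of 1 copy, so in these comparisons the edits and the X chromosome cannot be told apart. The 5 libraries lie in both deposit blocks. Among the lettered libraries, however, only the F121-9 pair had X reads of both copies, and both are of the first block. In the site and block fits over the lettered libraries the X chromosome is therefore partly tied to the edits and to the block.

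**Figure D5:**
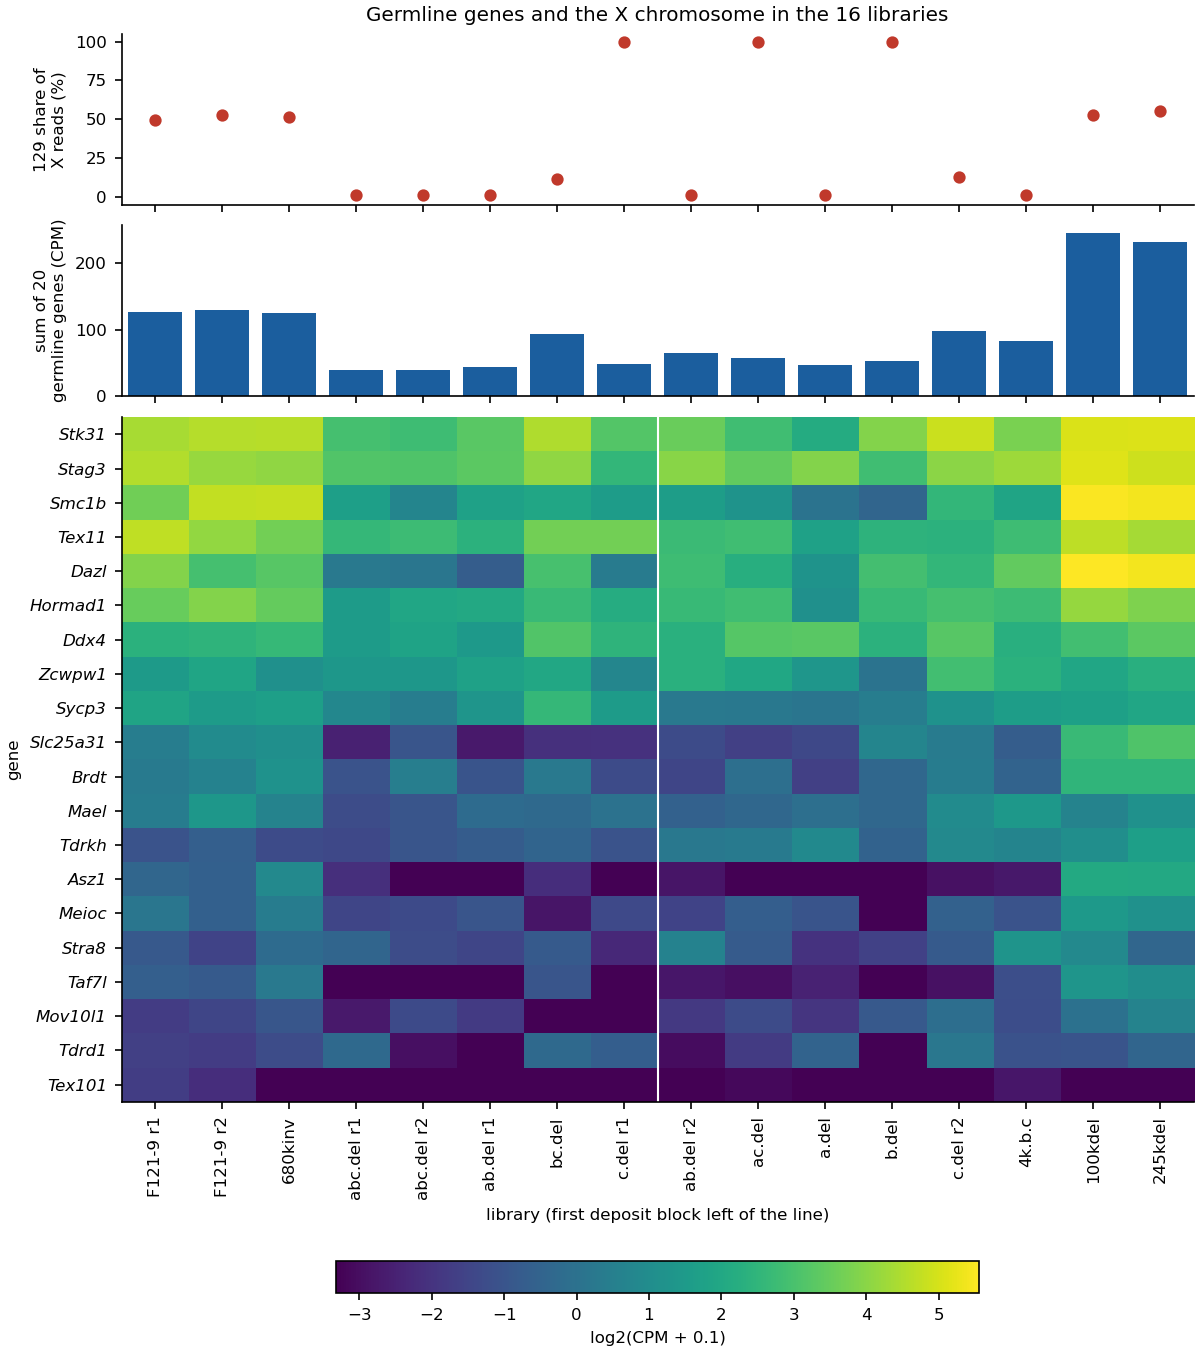
Share of X chromosome reads from the 129 copy (top, percent), summed level of the 20 germline genes (middle, CPM) and log2(CPM + 0.1) of each gene (bottom, colour scale, most highly transcribed at the top) in the 16 libraries (x axis; the white line divides the deposit blocks). The 5 libraries with X shares of 49.7% to 55.6% have the 5 highest sums, 125 to 246 CPM.

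Other genes of the same machinery were described by 2 further lists. Of 15 genes for other subunits of polycomb repressive complex 1, limma called 0 in abc.del, ab.del and c.del, with medians of 0.12, 0.15 and 0.18 on the log2 scale and 1, 1 and 2 unadjusted p below 0.05; edgeR called 0 in each, and DESeq2 called Yaf2 alone, lower, in each. The highest in mean level were Tfdp1, the E2F partner DP1, at 102 to 262 CPM over the libraries, Wdr5, a histone-reader scaffold, at 108 to 177 CPM, the deacetylase gene Hdac2 at 62.6 to 111 CPM, and Cbx1, a chromodomain protein that binds methylated H3K9, at 63.8 to 85.7 CPM. Between the deposit blocks 2 of 15 were called, Bcor (0.80) and Hdac2 (0.46), both higher, against 17.6% of all genes called higher. Of 8 genes for other factors of H3K9 methylation, limma, edgeR and DESeq2 called 0 in each of the 3 groups, with 0 unadjusted limma p below 0.05. The limma and edgeR shares of all genes were those just given, and DESeq2 called 2.59%, 1.33% and 1.58% in either direction. Cbx5, which encodes the heterochromatin protein HP1 alpha, was at 161 to 230 CPM, Zfp644 at 116 to 185, Atf7ip, the cofactor of SETDB1, at 94.3 to 211, and Trim28, the corepressor that recruits SETDB1, at 38.2 to 120 CPM. Trim28, 1 of 8 against the same 17.6%, was called higher in the second block (0.79, SE 0.15, limma adjusted p 0.00261). Between the copies 6 of 15 genes of the first list (Cbx1, Cbx3, Hdac1, Hdac2, Kdm2b and Pcgf2) and 4 of 8 of the second (Atf7ip, Setdb2, Wiz and Zfp644) were called, beside 46% of all genes.

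The genes whose log2 level followed Pcgf6 most closely over the 16 libraries, of 11225 with a mean of at least 1 CPM, were Snora64 (Pearson r 0.943), Kctd10 (0.941) and Sys1 (0.940). Those closest to Mga were AW146154 (0.917), Btaf1 (0.857) and Rsf1 (0.837). These are descriptions over libraries that share the block difference.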

How the data were processed

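Bru-seq libraries of 16 samples were compared. Bowtie2, bedtools and mm10 are listed in the submitters' processing notes, without versions. Per the file headers, reads were assigned to the 129 or cast copy by SNPs, and a tag q10, taken here as a mapping quality of 10, marks a filter. The values the authors deposited, named RPKM by the submitters and assumed so in the design, are CPM: each of 32 columns sums to 1000000 and was not divided by length. Dividing by the smallest value above 0 gave whole reads for 100% of values (within 0.01), which entered edgeR 4.0.16 and DESeq2 1.42.0.

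The mean of both copies, log2(CPM + 0.1), was fitted with limma 3.58.1 (trended, two-sided, Benjamini-Hochberg over 14094 genes with a mean of at least 0.2 CPM), with the 4 groups of 2 libraries in 1 fit. Fold changes are on that scale. The 6 lines that hold segments of genes were left out. Libraries of a group are separate clones or, for F121-9, numbered samples whose independence the labels do not state. Members, lists and tests were chosen with earlier results of these data known. Named were the members, list genes that passed, the 4 highest per list, the 3 genes most like Pcgf6 and Mga, and genes said to be singled out after their values were seen, which include Dazl, Hormad1, the X-linked genes and those printed as promoters. The limma fit of the 4 groups was also run on simulated counts. These had 1 fixed spread and no deposit block, X or chromosome copy differences, so that run cannot show how the fits behave where such differences exist.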

Additional observations from a re-analysis of the deposited data

How the results depend on the processing

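Under every alternative run (pseudocount, filter, centring, deposit block as a covariate, edgeR, DESeq2, each copy alone, fewer groups and leaving out each library), 0 members were called in abc.del, ab.del, c.del and for sites a, b and c. Counts over all genes moved more: 31 in abc.del became 0 to 671 (0 to 156 on leaving out 1 library), 7 in ab.del became 0 to 202 (0 to 53), 7 in c.del became 0 to 222 (0 to 29) and 2 for site a became 0 to 160 (0 to 6); the highest counts came from the block covariate (671 and 202) or DESeq2 (222 and 160), edgeR on the recovered reads called 18, 11 and 8, DESeq2 called 9 genes for site b and 3 for site c, and the cause was not tested. Without F121-9 replicate 2 the 3 groups had 0 called genes each. Median centring and edgeR also changed the split of calls between blocks, from 2476 higher and 985 lower to 1080 and 2440 (median centring) and 1542 and 1631 (edgeR), and in ab.del from 1 higher of 7 to 1 of 36 and 0 of 11.

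The 5 members called between blocks became 3 to 5 on leaving out 1 library (3 without replicate 1 or 2 of F121-9 or of ab.del, without c.del replicate 1 or without b.del). They were not always drawn from the same 5, since Ehmt2, Pcgf6 and L3mbtl2 each entered in some of these fits. The 7 members called between copies became 3 with the second block alone, where 4k.b.c and a.del are 2 of 8 libraries, against 6 with the first. Pcgf6, Mga and Rybp, on chromosomes with reads of both copies in those 2 libraries, were not called in the second block alone. Pcgf6 was at 0.37 in the first block (limma adjusted p 0.00164) and 0.03 in the second (limma adjusted p 0.622). Mga was at -0.15 and -0.12, and Rybp, called in neither block alone, at -0.07 and -0.09. The cause was not tested. Max, not called between copies over all libraries (-0.92), was called in the other direction in the first block alone (0.38) and without 4k.b.c and a.del (0.26), and was at -2.22 in the second block alone; both those libraries lie in the second block and had almost no 129 reads of Max. No other called member changed direction. Of 1420 member values under the alternatives, 151 that were called in neither setting changed sign. No paired analysis was possible because only the F121-9 labels carry replicate numbers. With 2 libraries a group and 1 library for 8 clones the precision is limited, and Ehmt2 (68 to 425 reads) and E2f6 (151 to 576 reads) were the least precise.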

Other observations

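Yaf2, the paralogue of Rybp that can take its place in polycomb repressive complex 1, was singled out after its values were seen. It was at 22.2 and 33.3 CPM in F121-9, 34.1 in 680kinv, 36.7 in 100kdel and 40.1 in 245kdel. It was at 9.22 and 9.16 CPM in abc.del, 9.47 and 9.35 in ab.del, 8.63 and 11.9 in c.del, and 8.83 to 17.2 in the other 5 single clones. The 5 libraries with X reads of both copies were thus all above the other 11, as for 3.19% of all genes, although Yaf2 lies on chromosome 15. Both copies of Yaf2 were lower in abc.del: the 129 copy was at 10.3 and 8.50 CPM and the cast copy at 8.14 and 9.82, against 18.5 and 34.0 and 25.9 and 32.5 in F121-9. The fitted change was -1.55 (SE 0.31) in abc.del, with a limma adjusted p of 0.108; it was 0.0118 with the deposit block as a covariate, 0.0669 with edgeR and 4.88e-05 with DESeq2. In ab.del and c.del the change was -1.52 and -1.41. Rybp did not separate the same libraries, at 202 to 283 CPM in the 5 and 177 to 309 in the 11. Cbx3, a further PRC1.6 subunit that binds methylated H3K9, was the reverse of Yaf2, at 41.4 to 51.4 CPM in the 5 libraries and 52.6 to 69.3 in the 11, as for 0.475% of all genes; it too was singled out after its values were seen. The part of the X chromosome in these differences was not tested.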
